A study of Mus musculus with 4 samples.

Results

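Collagens, laminins, cadherins and a few glycoproteins associated with them were examined in mouse leukaemia cells. The cells were wild type or knockout for Anp32b, a gene for a nuclear acidic protein. Their members were chosen by symbol: every collagen chain gene (Col followed by its type and chain), laminin chain, cadherin (Cdh), cadherin-related gene (Cdhr) and protocadherin (Pcdh), together with Mmrn1, Mmrn2, Fn1, Sparc and Nid1. This gave 112 of the 16613 gene symbols in the deposited count tables. The cells were GFP+ bone marrow cells from mice that had received B220+ bone marrow cells carrying N-myc by transduction, described in the labels as B-ALL (B-cell acute lymphoblastic leukaemia) induced by N-myc, of strain C57BL/6. The donor cells were Anp32b+/+ (wild type, 2 libraries) or Anp32b-/- (knockout, 2 libraries), and both genotypes carried the N-myc vector. The labels give neither the number, age or sex of the recipients nor the time after transplantation. Whether the 2 libraries of a genotype stem from different animals is not stated, and the p-values reflect only the spread between libraries, which may be technical.

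Collagens are secreted proteins whose chains wind into triple helices. Laminins are secreted as trimers of an alpha, a beta and a gamma chain and form the base of basement membranes, where nidogen-1 (Nid1) links them to type IV collagen. Cadherins and protocadherins are membrane proteins that bind like molecules on neighbouring cells through calcium-dependent extracellular repeats. The clustered protocadherin genes lie side by side and each contributes its own variable first exon, in the gamma cluster spliced to the same constant exons. In bone marrow, matrix proteins are made largely by stromal, bone and endothelial cells and are bound by blood cells through integrins and syndecans.

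The libraries held from 19581575 to 19758671 estimated reads, so that 3 reads, the limit a count of 0 allows, equalled 0.151 to 0.155 CPM (counts-per-million, the read count relative to the normalised library total). Anp32b was at 774 and 853 CPM in the wild-type libraries and at 74.4 and 70.6 CPM in the knockout libraries (edgeR log2 fold change -3.49, SE 0.07, adjusted p = 2.27e-13). The source of the 1449 and 1367 Anp32b reads left in the knockout libraries was not tested. All 11 B lineage markers were present, with a summed level of 6330 and 6294 CPM in wild type and 5842 and 5929 CPM in knockout (4 fell and 1 rose). Markers of several other cell types, and the Y-linked genes, differed between the genotypes. Neutrophil markers summed to 607 and 623 CPM in wild type and to 119 CPM in each knockout library (11 of 12 fell, and none was at 0). Monocyte and macrophage markers summed to 100 and 95.2 CPM against 49.3 and 50 CPM (2 of 10 tested fell). T cell markers summed to 22.4 and 25.8 against 16.1 and 17.3 CPM (2 of 4 tested fell). Most of that sum was Lck, at 16.1 and 18.9 against 13.1 and 13.6 CPM. Cd3d, Cd3e and Cd3g were not tested and had at most 7 reads in any library, and Cd8a and Cd5 were not called. The 4 Y-linked genes summed to 156 and 173 against 42.5 and 41.7 CPM (all 4 fell). No erythroid marker was called among 8 tested (sums from 208 to 238 CPM). The part of these differences in the results below was not tested. In bulk RNA, fewer cells of a type and less RNA per cell cannot be told apart. The Y-linked genes reflect male cells and not a cell type. The sex of donors is not given either, so a difference in the share of male cells and one of genotype cannot be told apart.

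Most of these matrix and cadherin genes were barely detected. Only 47 of the 112 passed the filter on low counts, which asks for about 10 reads in 2 libraries, and 37 had at most 3 reads in every library. Of the 47, 17 fell in the knockout libraries and 5 rose (edgeR adjusted p under 0.05). Over all 12123 tested genes, 12.6% fell, 10.9% rose and 23.6% were called in either direction. The 47 do not stand for all members, because 8 of them reached the filter's level in wild type only and 2 in knockout only. Of the 17 that fell, 12 reached it in both genotypes, and Col6a6, Lama4, Sparc, Pcdhb22 and Pcdhga5 in wild type only. Of the 5 that rose, Lama2 reached it in knockout only. The median log2 fold change of the 47 was -0.44, against 0.00 for all tested genes. The 21 Pcdhg genes share exons and hold fractional reads. With them summed to a single entry, an alternative chosen after seeing the data, 10 members fell and 3 rose. When knockout replicate 2 was left out 11 members fell and 2 rose, and when knockout replicate 1 was left out 17 fell and 3 rose.

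**Figure D1:**
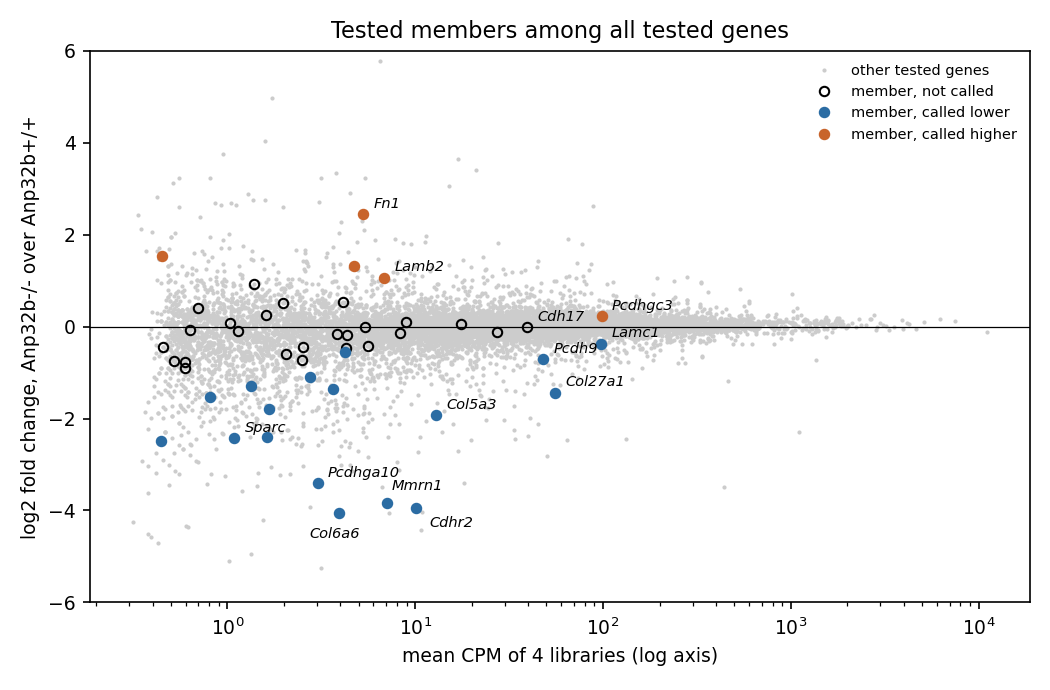
Log2 fold change (knockout over wild type, y axis) against the mean CPM of the 4 libraries (x axis, log scale) for all tested genes (grey) and the 47 tested members (circles, filled where called), with 7 genes beyond the plotted range left out. Col6a6, Cdhr2 and Mmrn1 sit near -4 at low mean CPM, and the more abundant Col27a1 and Pcdh9 lie at -1.44 and -0.71, with Cdh17 close to 0.

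Cdhr2, Mmrn1 and Col6a6 fell the furthest, each by more than 14-fold. Cdhr2 encodes a protocadherin-like protein known from the microvilli of gut and kidney epithelium. The gene (chr13:54701463-54736662, GRCm38, RefSeq) was at 19.7 and 18.5 CPM in the wild-type libraries and at 1.28 and 1.19 CPM in the knockout libraries. Both knockout libraries lay far below both wild-type libraries (edgeR log2 fold change -3.94 with SE 0.15, adjusted p = 3.07e-10, 15.4-fold lower). Mmrn1 encodes multimerin-1, a large soluble protein stored in platelets and endothelial cells, where it binds coagulation factor V. Its level (chr6:60944317-60989378) was 13.6 and 13.0 CPM in wild type and 0.924 and 0.929 CPM in knockout (log2 fold change -3.83, SE 0.18, adjusted p = 2.04e-09, 14.2-fold lower). The 12 megakaryocyte and platelet markers together reached only 2.81 and 3.03 CPM in wild type and 2.77 and 2.53 CPM in knockout, and none of the 3 tested was called. Among them Pf4, the platelet factor 4 gene, had 0 and 1 reads in wild type and 1 and 0 in knockout. Col6a6, one of the long alpha chains of type VI collagen (chr9:105689417-105828246), was at 8.78 and 6.00 CPM in wild type and 0.462 and 0.413 CPM in knockout (log2 fold change -4.06, SE 0.30, adjusted p = 2.12e-07, 16.7-fold lower). Of all 12123 tested genes, 18 had a log2 fold change at or below that of Col6a6 (itself included) and 23 at or below that of Mmrn1. These 3 calls held in every alternative that tested the gene, each left-out library included. Neutrophil markers (607 and 623 against 119 CPM) and Y-linked genes (156 and 173 against 42.5 and 41.7 CPM) were lower in the same libraries. The part of those differences in the 3 calls was not tested.

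**Figure D2:**
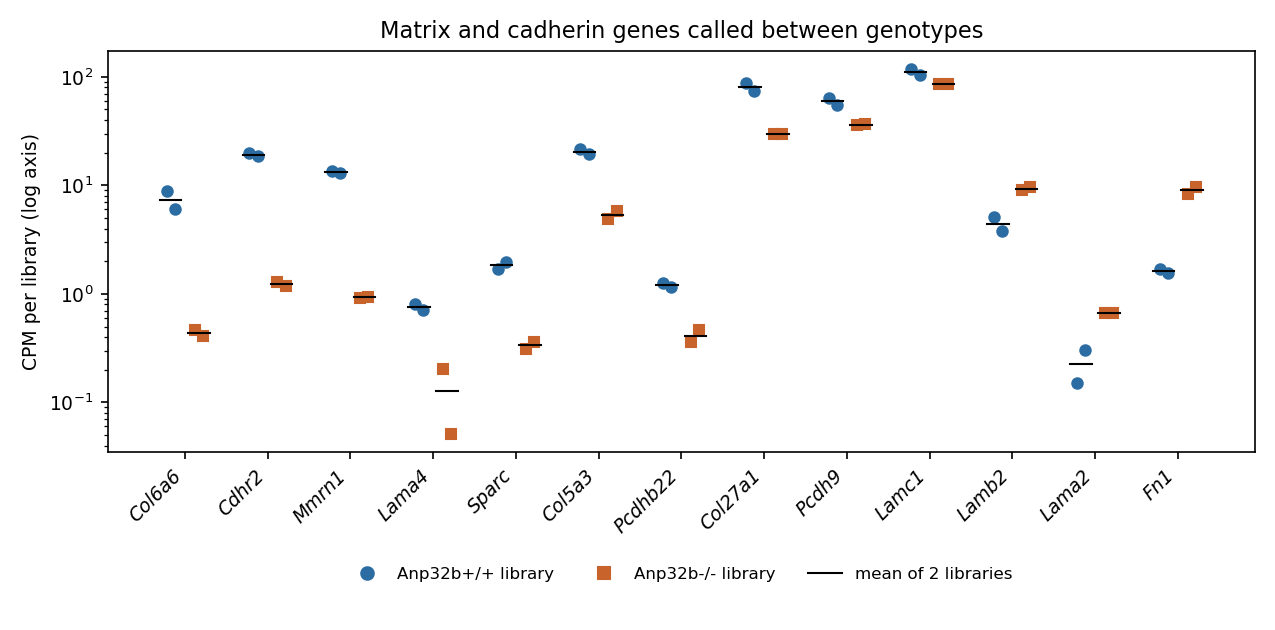
CPM per library (y axis, log scale) for the 13 called members outside the Pcdhg genes, ordered by fold change, with wild-type libraries as circles, knockout libraries as squares and a line at the mean of 2 libraries. The genes run from Col6a6 at the left (8.78 and 6.00 against 0.462 and 0.413 CPM) to Fn1 at the right (1.71 and 1.56 against 8.26 and 9.66 CPM). They were chosen by their calls on these same libraries, so that the genotypes do not overlap in any of them adds no support.

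The upstream sequences of Cdhr2 and Mmrn1 are shown, because the study's title speaks of activation of PU.1. The windows can be searched for an exact PU.1 sequence. They are the 2 windows of called members that share no base with the gene as RefSeq gives it and at most 25 bases with its GENCODE exons, leaving aside the clustered protocadherins. Each is the 250 bases before a RefSeq start (GRCm38.p6), 5′ to 3′ in the direction of the gene, with every CG dinucleotide in capitals. The GENCODE gene model of Mmrn1 begins further upstream, so that its window is intronic there.
Cdhr2, chr13:54701213-54701462, plus strand: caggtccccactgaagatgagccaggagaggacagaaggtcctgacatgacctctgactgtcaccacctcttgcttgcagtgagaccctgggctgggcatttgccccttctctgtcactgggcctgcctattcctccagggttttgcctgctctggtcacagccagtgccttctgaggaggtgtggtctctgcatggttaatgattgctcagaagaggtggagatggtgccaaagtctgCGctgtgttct
Mmrn1, chr6:60944067-60944316, plus strand: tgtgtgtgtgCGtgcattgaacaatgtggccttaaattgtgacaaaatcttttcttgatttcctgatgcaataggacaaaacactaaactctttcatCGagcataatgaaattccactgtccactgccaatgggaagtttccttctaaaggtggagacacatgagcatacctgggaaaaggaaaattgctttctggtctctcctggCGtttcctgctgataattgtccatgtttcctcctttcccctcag
The Cdhr2 window held 1 CG and the Mmrn1 window 3, against a median of 6 over 32851 windows. Windows with fewer CG dinucleotides made up 7.87% of all for Cdhr2 and 29.0% for Mmrn1. The exact sequence GAGGAAGT, a PU.1 site, was searched on both strands of windows from 250 bases before to 50 bases after the start. It was present in 3.20% of all windows and in 0 of 55 windows of the 49 matched members. The E-box CACGTG, a site of the MYC family, was present in 7.15% of all windows and among members only in that of Cdh15. TATAAA was present in 13.6% of all windows and in those of Col10a1, Col11a2, Col17a1 and Pcdh8. Only exact matches were counted, so other forms of these sites inside the windows were not searched for. The counts also say nothing of sites outside the windows or of starts that the cells may use elsewhere.

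Among the 34 collagen genes, 9 were tested, of which 3 fell and none rose (edgeR: 3 at an adjusted p under 0.05, all lower). Those 3 were Col6a6, Col5a3 and Col27a1, and Col6a6 reached the filter's level in wild type only. Over all tested genes, 12.6% fell and 10.9% rose, and 9 genes are too few to read a direction of the class from. Col27a1, a fibrillar collagen of developing cartilage (chr4:63214009-63334991), was the most abundant collagen, at 87.2 and 74.5 CPM in wild type and 30.0 and 29.6 CPM in knockout. The genotypes were well apart (log2 fold change -1.44, SE 0.08, adjusted p = 1.07e-08, 2.71-fold lower). Col5a3, a chain of the fibril-regulating type V collagen (chr9:20770050-20815117), was at 21.4 and 19.5 CPM in wild type and 4.88 and 5.83 CPM in knockout (log2 fold change -1.93, SE 0.12, adjusted p = 3.04e-08, 3.82-fold lower). Col11a2, a chain of type XI collagen, had overlapping libraries at 5.87 and 4.99 CPM against 5.08 and 5.73 CPM (log2 fold change -0.01, 95% interval -0.35 to 0.33, adjusted p = 0.979). Col20a1 was at 5.07 and 4.94 CPM in wild type and 3.85 and 3.36 CPM in knockout, lower in both knockout libraries but not called (log2 fold change -0.47, SE 0.17, adjusted p = 0.0609). It was called lower with upper-quartile normalization (adjusted p = 0.0483). The other 4 tested collagens, Col6a4, Col22a1, Col18a1 and Col7a1, were at 0.310 to 2.10 CPM and none was called. Col6a4 lies near Col6a6 on chromosome 9, and was at 0.753 and 0.555 CPM in wild type and 0.462 and 0.310 CPM in knockout (log2 fold change -0.75, SE 0.47, adjusted p = 0.288). Whether its change differed from that of Col6a6 was not tested.

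The chains that usually pair with these collagens were hardly detected. Type VI collagen is assembled around the chains of Col6a1 and Col6a2, and neither of these genes nor Col6a3 had more than 1 read in any library. Type V collagen contains the chains of Col5a1 and Col5a2. Col5a1 had 5 and 1 reads in wild type and 2 and 8.04 in knockout, and Col5a2 had at most 1. The 6 chains of basement membrane type IV collagen (Col4a1 to Col4a6) had at most 5.01 reads in any library and none was tested. Col1a1 and Col1a2, the type I collagen of bone and fibroblasts, had 3 and 8 and 1 and 0 reads in wild type, and 4 and 2 and 4 and 2 reads in knockout. Differences in such genes were not detectable at this depth. Of 14 stromal and bone markers, the leptin receptor gene Lepr, Cxcl12, Pdgfrb and 7 others together had 10 and 14 reads in wild type and 21 and 15 in knockout. The remaining 4 of that list, Alpl, Foxc1, Runx2 and Acta2, were set apart after their values were seen. Alpl was at 592 and 549 against 630 and 649 CPM, and Foxc1 at 57.6 and 54.3 against 20.2 CPM in each knockout library. Runx2 was at 2.11 and 1.92 against 1.03 and 1.08 CPM, and Acta2 at 2.71 and 2.07 against 1.80 and 1.24 CPM. In every library Acta2 alone lay above the sum of the other 10 genes (0.552 and 0.706 against 1.08 and 0.775 CPM). The source of the Runx2 and Acta2 reads was not tested. In that list Foxc1 and Runx2 fell, Alpl rose and Acta2 was not called. Runx2 and Alpl missed the threshold when knockout replicate 1 (adjusted p = 0.163 and 0.216), knockout replicate 2 (0.158 and 0.405) or wild-type replicate 2 (0.0505 and 0.0690) was left out, and Runx2 also when wild-type replicate 1 was (0.0960).

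Among the 10 laminin chain genes, 2 fell and 2 rose of 6 tested (12.6% fell and 10.9% rose over all tested genes). Lamc1, the gamma chain found in most laminins (chr1:153218922-153332786), was the most abundant at 118 and 103 CPM in wild type and 85.5 and 85.4 CPM in knockout. The knockout libraries lay below both wild-type libraries by a small margin (edgeR log2 fold change -0.37 with SE 0.06, adjusted p = 7.79e-04). Lamc1 missed the threshold when knockout replicate 2 was left out (adjusted p = 0.0812). Lamb2, a beta chain known from basement membranes of muscle synapses and kidney (chr9:108479847-108490530), rose from 5.07 and 3.78 CPM to 8.98 and 9.55 CPM (log2 fold change 1.06, SE 0.15, adjusted p = 1.50e-04, 2.09-fold higher), a call that held in every alternative that tested it. Lama4, an alpha chain of vessel and marrow basement membranes, had 16 and 14 reads in wild type and 4 and 1 in knockout (log2 fold change -2.49, SE 0.61, adjusted p = 8.21e-03). It was not called when knockout replicate 2 was left out (log2 fold change -1.85, adjusted p = 0.137) or with DESeq2 (0.0940), and the log2 fold change was -3.71 when knockout replicate 1 was left out. Lama2, the alpha chain of muscle laminin, had 2.71 and 5.89 reads in wild type and 13.2 and 13.4 in knockout (log2 fold change 1.54, SE 0.53, adjusted p = 0.0498). Its call was lost with each library left out, with adjusted p from 0.0539 without wild-type replicate 2 (log2 fold change 2.10) through 0.187 without knockout replicate 1 and 0.219 without wild-type replicate 1 to 0.220 without knockout replicate 2. It was 0.339 with DESeq2. Exons of Lama2 overlap 631 bases of an antisense gene, whose reads cannot be told apart without strand. Lamb3, at 6.88 and 6.05 against 5.39 and 4.18 CPM, and Lamc3, at 0.703 and 0.605 against 0.411 and 0.826 CPM, were not called (adjusted p = 0.0743 and 0.920). Lama3, Lama5 and Lamb1 had at most 8 reads in any library.

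Scaled to transcript length, the gamma chain gene far exceeded any partner. Lamc1 stood at 15.4 and 13.5 CPM per kilobase of coding transcript in wild type and 11.2 in each knockout library. The beta chain genes Lamb3 (1.70 and 1.49 against 1.33 and 1.03 CPM per kilobase) and Lamb2 (0.901 and 0.672 against 1.60 and 1.70) came next. In wild type Lamb3 lay above Lamb2 in both libraries, and in knockout Lamb2 lay above Lamb3 in both. The alpha chain genes Lama4 and Lama2 did not exceed 0.133 and 0.0698 CPM per kilobase in any library.

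Of the 5 glycoproteins, Mmrn1 and Sparc fell, Fn1 rose, Nid1 was not called and Mmrn2 was not tested. Fn1 encodes fibronectin, a matrix protein to which B cell precursors bind through integrins. The gene (chr1:71585473-71653280) rose from 1.71 and 1.56 CPM to 8.26 and 9.66 CPM (edgeR log2 fold change 2.45 with SE 0.18, adjusted p = 2.45e-07, 5.46-fold higher), the largest rise among members that were called. The exons of Fn1 share 292 bases with an antisense gene in the GENCODE annotation, whose reads cannot be told apart without strand. Sparc encodes a collagen-binding protein of bone and remodelling tissue. The gene (chr11:55394159-55420080) fell from 1.71 and 1.97 CPM to 0.308 and 0.361 CPM, with 34 and 39 reads against 6 and 7 (log2 fold change -2.43, SE 0.38, adjusted p = 2.77e-04, 5.40-fold lower). The calls of Fn1 and Sparc held in every alternative that tested the gene. Nid1 (chr13:13437602-13512275) had 203 and 142 reads in wild type and 152 and 155 in knockout, both knockout libraries lying between the wild-type libraries (log2 fold change -0.13, 95% interval -0.47 to 0.20, adjusted p = 0.586). Its sign turned without wild-type replicate 1 (0.14). Mmrn2, an endothelial relative of Mmrn1, had a single read in 1 knockout library and 0 in the others. The 8 endothelial markers other than Eng and Pecam1, a division made after seeing their values, summed to 16 and 33 reads in wild type and 15 and 9 in knockout. Eng fell from 67.4 and 63.2 CPM to 16.6 and 16.4 CPM (log2 fold change -1.98, SE 0.07, adjusted p = 1.95e-10) and was the only endothelial marker called, of 2 tested.

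No gene of the Cdh family passed the test. Of 16 Cdh genes, Cdh17, Cdh11 and Cdh24 were tested and none was called by edgeR. Cdh17 encodes LI-cadherin, known from intestine and from B-lineage cells. The gene (chr4:11758157-11817905) was at 39.2 and 39.8 CPM in wild type and 40.8 and 37.3 CPM in knockout, with overlapping libraries and an interval that leaves room for small changes either way (log2 fold change -0.02, 95% interval -0.17 to 0.13, adjusted p = 0.887). Its sign turned without knockout replicate 2 (0.045). Cdh11, a cadherin of bone-forming and mesenchymal cells (chr8:102632095-102785493), was at 32.5 and 24.4 CPM against 26.6 and 26.1 CPM (log2 fold change -0.11, 95% interval -0.34 to 0.12, adjusted p = 0.514). Cdh24 was at 16.7 and 17.7 CPM against 17.9 and 18.0 CPM, slightly higher in both knockout libraries and not called (log2 fold change 0.06, 95% interval -0.13 to 0.24, adjusted p = 0.701). Cdh1, Cdh2 and Cdh5 (E-, N- and VE-cadherin) were below the filter. Cdh1 had 7 and 8 reads in wild type and 1 and 3 in knockout, Cdh2 had 9.34 and 8.81 against 11.8 and 7.20, and Cdh5 had 7 and 10 against 4 and 8. Cdhr4, the other cadherin-related gene, had 6 reads in each wild-type and 3 in each knockout library.

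Outside the clusters, 2 of 9 protocadherins were tested. Pcdh9, best known from the nervous system (chr14:93013700-93892834), was the most abundant of them and fell from 64.2 and 55.0 CPM to 36.2 and 36.5 CPM (edgeR log2 fold change -0.71 with SE 0.08, adjusted p = 9.79e-06, 1.64-fold lower), a call that held in every alternative. Pcdh11x was at 4.72 and 4.49 CPM against 4.21 and 3.87 CPM, slightly lower in both knockout libraries and not called (log2 fold change -0.19, SE 0.17, adjusted p = 0.473).

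In the gamma protocadherin cluster single genes moved in opposite directions, while the total differed little between genotypes. All 21 Pcdhg genes in the tables passed the filter. Their summed level was 155 and 146 CPM in wild type and 152 and 154 CPM in knockout (log2 fold change 0.03, SE 0.05, 95% interval -0.09 to 0.14, edgeR adjusted p = 0.773 with the genes summed to 1 entry). Of the 21, 7 fell, 2 rose and 12 were not called (12.6% fell and 10.9% rose over all tested genes). Pcdhgc3, one of the C-type genes at the end of the cluster, made up 60.2% and 59.9% of the total in wild type and 68.1% and 70.6% in knockout. Its own level rose from 93.4 and 87.2 CPM to 104 and 109 CPM (log2 fold change 0.24, SE 0.06, adjusted p = 8.59e-03). Pcdhgc3 missed the threshold when knockout replicate 1 (adjusted p = 0.0564) or knockout replicate 2 (0.231) was left out. The other 20 genes together were at 61.8 and 58.4 CPM in wild type and 48.6 and 45.5 CPM in knockout.

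Pcdhga10 changed the most within the cluster, from 5.72 and 5.34 CPM to 0.513 and 0.516 CPM (edgeR log2 fold change -3.41 with SE 0.26, adjusted p = 2.68e-07, 10.6-fold lower). Its share of the family went from 3.69% and 3.67% to 0.337% and 0.334%. Pcdhga2 fell from 2.01 and 3.48 CPM to 0.513 and 0.516 CPM (log2 fold change -2.40, SE 0.37, adjusted p = 2.63e-04). Pcdhgb4 went from 5.42 and 5.04 to 2.52 and 1.55 CPM (-1.36) and Pcdhgb1 from 3.61 and 3.88 to 1.75 and 1.76 CPM (-1.10), log2 fold changes in parentheses. The calls of these 4 genes held in every alternative that tested them. Pcdhga7 rose from 1.91 and 3.48 CPM to 5.85 and 7.64 CPM (log2 fold change 1.32, SE 0.23, adjusted p = 8.06e-04), and missed the threshold when knockout replicate 2 was left out (adjusted p = 0.0824). Pcdhga3 fell from 1.96 and 1.87 to 0.821 and 0.723 CPM (-1.30), Pcdhga5 from 2.06 and 3.13 to 1.23 and 0.258 CPM (-1.79) and Pcdhgb7 from 5.42 and 4.69 to 3.49 and 3.41 CPM (-0.55). Each of these 3 missed the threshold when knockout replicate 2 was left out (adjusted p = 0.103, 0.157 and 0.211). Without that library the log2 fold change of Pcdhga5 was -1.07, and without knockout replicate 1 it was -3.29. Pcdhgb7 was also not called without knockout replicate 1 or without wild-type replicate 1 (adjusted p = 0.148 in both). The neighbouring Pcdhga2, Pcdhga3 and Pcdhgb1 all fell, while Pcdhga7 rose and the adjoining Pcdhgb4 fell. The Pcdhg transcripts share their constant exons, all 21 genes had fractional reads, and how the reads were shared out is not given in the sources used here. Values of single Pcdhg genes are therefore uncertain, more so than their sum. Among the other clustered genes, Pcdhb22 fell from 24.6 and 23 reads to 7 and 9 reads (log2 fold change -1.54, SE 0.39, adjusted p = 0.0113). It missed the threshold when knockout replicate 1 (0.119) or knockout replicate 2 (0.0895) was left out, and its exons overlap those of Pcdhb21 by 455 bases.

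**Figure D3:**
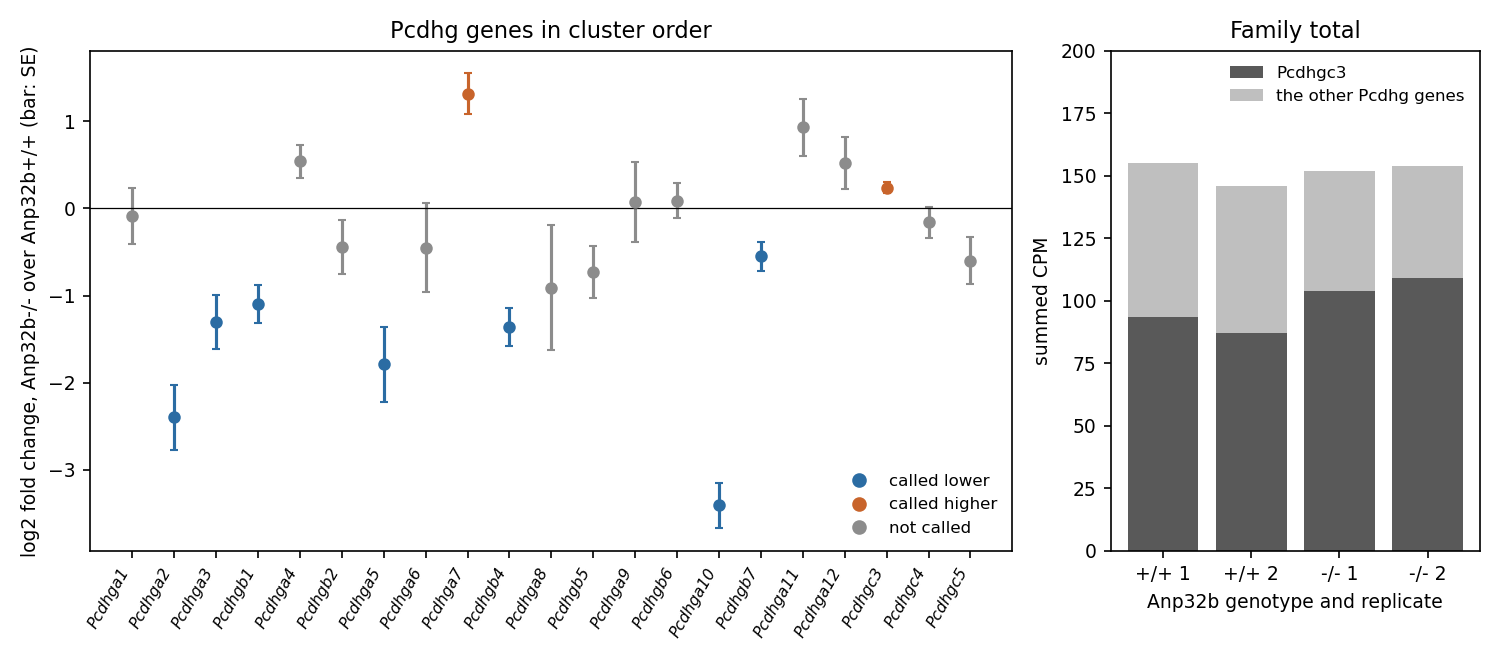
Left, log2 fold change (knockout over wild type, y axis, with SE bars) of the 21 Pcdhg genes in cluster order (x axis). Right, summed CPM of the family in each library (y axis, bars from 0), split into Pcdhgc3 and the other Pcdhg genes. Single genes range from -3.41 (Pcdhga10) to 1.32 (Pcdhga7), while the 4 totals lie between 146 and 155 CPM.

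Per kilobase of coding transcript, the order of the members differed between genotypes where genes had moved. In wild type, Pcdhgc3 (19.9 and 18.6 CPM per kilobase) lay highest, followed by Lamc1 (15.4 and 13.5). The place of Pcdhgc3 is uncertain in both genotypes, because how reads of the shared Pcdhg exons were shared out is not given. Pcdh9 (12.5 and 10.7), Cdh17 (11.3 and 11.5) and Col27a1 (11.5 and 9.78) came next and overlapped each other. Cdh11 (5.76 and 4.32) overlapped with Cdh24 (4.79 and 5.09) and with Cdhr2 (4.78 and 4.47), all above Col5a3 (3.49 and 3.19) and Mmrn1 (3.03 and 2.89). In knockout, Pcdhgc3 (22.1 and 23.3) was again highest, and Lamc1 (11.2 in each library) and Cdh17 (11.8 and 10.8) overlapped below it. Pcdh9 (7.07 and 7.12) then lay above Cdh24 (5.12 and 5.15), Cdh11 (4.71 and 4.63) and Col27a1 (3.94 and 3.89). Cdhr2 (0.311 and 0.288), Mmrn1 (0.206 and 0.208) and Col6a6 (0.0526 and 0.0470) lay below Fn1, which stood at 0.994 and 1.16 CPM per kilobase after 0.205 and 0.188 in wild type.

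**Figure D4:**
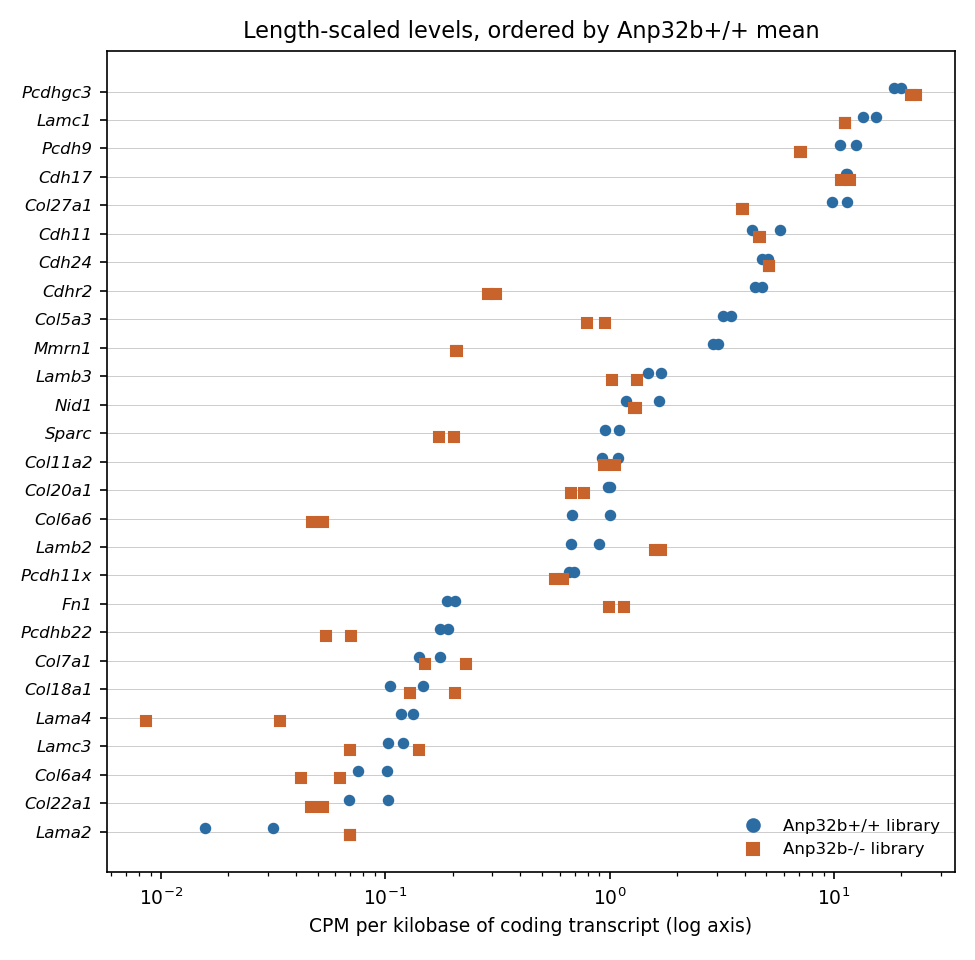
CPM per kilobase of coding transcript (x axis, log scale) of the tested members, with Pcdhgc3 standing for the Pcdhg genes, ordered by wild-type mean (y axis); circles are wild-type and squares knockout libraries. Cdh17 and Cdh11 overlap between genotypes, while Cdhr2, Mmrn1, Col5a3, Sparc and Col6a6 are displaced to lower levels and Fn1 and Lamb2 to higher ones.

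Genes that make, bind or cleave these proteins were taken from 5 lists, whose counts are read against the 12.6% that fell, 10.9% that rose and 23.6% called in all over the table. Of 14 tested genes of collagen biosynthesis and crosslinking, 1 fell and 3 rose (median log2 fold change -0.11, against 0.00 for all tested genes). Plod3, a collagen lysyl hydroxylase and glycosyltransferase, rose from 43.7 and 39.0 to 54.2 and 55.8 CPM (edgeR log2 fold change 0.41 with SE 0.07, adjusted p = 6.18e-04). P4hb, the disulfide isomerase subunit of prolyl hydroxylase, rose by 0.29, and P4ha1, its catalytic subunit, fell by 0.32 on the log2 scale. All 3 missed the threshold when knockout replicate 2 was left out (adjusted p = 0.0615, 0.0888 and 0.105), and P4ha1 also when knockout replicate 1 was (0.116). Of 17 tested matrix receptors, 2 fell and 2 rose (median -0.08), a share near that over the table. Sdc4, a heparan sulfate proteoglycan that binds fibronectin, fell from 102 and 106 to 56.2 and 52.9 CPM (log2 fold change -0.93, SE 0.06, adjusted p = 3.87e-08). Itga6, the laminin-binding integrin alpha 6 subunit, rose from 20.3 and 20.8 to 30.6 and 29.0 CPM (log2 fold change 0.53, SE 0.08, adjusted p = 1.58e-04). Its partner Itgb1 rose by 0.24, and missed the threshold when knockout replicate 1 (adjusted p = 0.0709) or knockout replicate 2 (0.132) was left out.

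Of 10 tested cadherin partners, 3 fell and 1 rose (median -0.20). Pkp3, a plakophilin of desmosomes, fell from 8.33 and 7.26 to 3.70 and 3.92 CPM (edgeR log2 fold change -1.03 with SE 0.15, adjusted p = 2.07e-04). Ctnnd1, the p120-catenin gene, fell from 322 and 278 reads to 184 and 194 reads (log2 fold change -0.63, SE 0.11, adjusted p = 7.45e-04), and its relative Arvcf rose by 0.36. Of 13 tested matrix proteases and inhibitors, 6 fell and none rose (median -0.22). Of the 6, Mmp12 (32 and 22 against 6 and 7 reads) and Mmp13 reached the filter's level of about 10 reads in wild type only. Mmp25 was below it in knockout replicate 1 (5.48 reads). Genes that enter the test through 1 genotype tend to be called lower in the other, so the 6 do not stand for the list. Mmp9, a gelatinase, fell from 13.9 and 10.9 to 3.59 and 2.94 CPM (log2 fold change -1.92, SE 0.16, adjusted p = 9.11e-07), and Mmp8, the neutrophil collagenase, from 7.63 and 6.20 to 1.44 and 2.01 CPM. Mmp13, another collagenase, had 20 and 18 reads in wild type and 3 and 1 in knockout (log2 fold change -3.14). That value was -4.05 when knockout replicate 1 was left out and -2.58, not called (adjusted p = 0.0543), when knockout replicate 2 was. Mmp8, Mmp9 and Mmp25 are also neutrophil granule genes, and neutrophil markers were at 607 and 623 CPM against 119 CPM in the same libraries. The part of that difference in the values of these genes was not tested. Of 15 other matrix proteins, 3 fell and 2 rose (median -0.22). Thbs3, 1 of the 2 that rose, reached the filter's level in knockout only (4 reads in each wild-type library, 17 and 16 in knockout). Below that level were also Smoc1 in wild-type replicate 2 (9 reads) and Thbs2 in knockout replicate 1 (7 reads). Ltbp2, a microfibril-associated protein gene, fell from 11.2 and 13.2 to 4.77 and 5.63 CPM (log2 fold change -1.23, SE 0.14). Smoc1, a relative of Sparc, rose from 0.653 and 0.454 to 4.11 and 2.69 CPM (log2 fold change 2.60, SE 0.34), and Thbs2, a thrombospondin gene, fell from 2.81 and 1.82 to 0.359 and 0.775 CPM (log2 fold change -2.02, SE 0.38, and -2.67 when knockout replicate 2 was left out).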

How the data were processed

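RNA-seq of 2 wild-type and 2 knockout libraries was used, grouped by the genotype in the labels. The deposited files hold estimated read counts (expected counts) per gene symbol, made by the authors; 64.5% to 65.6% of a library's values were whole numbers exactly, with a tolerance of 0. Per the submitters' processing notes, the tools were HISAT2 2.0.4 and DESeq2 1.4.5 with GRCm38; for the counting tool, annotation and strand, nothing is given in the sources used here. All 16613 symbols were above 0 in at least 1 library.

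Counts were rounded and fitted over the whole table with edgeR 4.0.16 (R 4.3.3) by its quasi-likelihood test, after TMM normalization and filterByExpr at a minimum count of 10. No covariate entered, and p-values were adjusted by Benjamini-Hochberg over 12123 tested genes. Calls are those under an adjusted p of 0.05. SE is that of the log2 fold change, and CPM values carry the TMM scaling. Limits at 0 reads cover counting error only. With 2 libraries a group, the smallest p of an exact permutation test is 0.333, and none was run. Levels per kilobase use the APPRIS principal coding transcripts of GENCODE M21 (GRCm38). RefSeq GRCm38.p6 gave coordinates for 112 of 112 members. Protein sequences were not used here, so the planned protein features were not computed. The values of 1 member are not reported here.

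The members, gene lists and alternatives were chosen with earlier results of these data known. Values in every library are given for called members whose higher genotype averaged at least 1 CPM, and for Mmrn1, Mmrn2, Fn1, Sparc and Nid1; the lists of related genes are represented by their 3 called genes with the smallest p, and cell type markers by counts and summed CPM. Other genes, such as Mmp25 and the weakly expressed chains, were named after their values were seen. Alternatives were RLE and upper-quartile normalization, no filter, a filter of 10 CPM in 2 libraries, DESeq2 1.42.0, limma-voom (limma 3.58.1), the replicate number as a block, and leaving out each library, where the remaining library of that genotype is taken to vary as the other genotype does. Summing the Pcdhg genes and the choice of transcript for the length were added after seeing the data. The procedure was tested on simulated counts.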

Additional observations from a re-analysis of the deposited data

How the results depend on the processing

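Of the 22 called members, 13 kept their call and direction in each alternative that tested them, 9 lost the call in at least 1, and 0 reversed. Reversals among the named genes were those of 2 uncalled ones, Cdh17 (from -0.081 to 0.045 with a library left out) and Nid1 (from -0.37 to 0.14). With a filter of 10 CPM in 2 libraries, which leaves fewer genes to test, 6 members fell and 1 rose, and in the surrounding lists 6 genes fell and 5 rose (15 and 8 in the main analysis). With no filter 2 members rose, and over all genes 744 fell and 547 rose, against 1533 and 1323. DESeq2 called 847 genes lower and 729 higher. The cause of these last differences was not tested. With the Pcdhg genes summed, 10 members fell and 3 rose. Leaving out 1 library gave 11 to 21 members lower and 2 to 5 higher, 579 to 1712 genes lower and 372 to 1676 higher, and in the lists 8 to 18 lower and 3 to 9 higher. The lowest of each were those without knockout replicate 2. A fit without a knockout library, whichever it is, takes its spread from wild type. The wild-type libraries differed more from each other (5.29 against 2.09 in chi-square per degree of freedom). The part of this in the lower counts was not tested.

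Whether same-numbered libraries were prepared together is not stated. The correlation of deviations between same-numbered libraries was 0.035, a value that 2 libraries a genotype make the same for both numbers. With the number as a block, 20 members fell and 7 rose, and 1779 and 1644 genes over the table. Depth limits the 65 members below the filter, none of which exceeded 11.8 reads in a library.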

Other observations

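Among the members below the filter, Pcdhac1, a C-type gene of the alpha protocadherin cluster, had 11 and 8.48 reads in wild type and none in either knockout library. Against the limit of 3 reads over the 2 knockout libraries it was at least 6.45-fold lower, with the wild-type reads taken as exact. Counting error in wild type is thus left out of that limit. It was not tested in the main analysis. Cdh7 had 6.53 and 10.6 reads in wild type and 2.94 and 1.02 in knockout, and Pcdh19 had 11 and 10 against 8 and 3. These 3 genes were named after their values were seen.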
